A study of Arabidopsis thaliana and Boechera depauperata with 12 samples.

Results

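The comparison described here sets *Arabidopsis thaliana* plants given an acquired heat stress (A/HS) against plants given a basal heat stress (B/HS), gene by gene and without any control library. It holds 4 of the 12 RNA-seq libraries of the series, chosen by their labels alone, namely the A/HS libraries W5 and W6 (labelled 43 °C) and the B/HS libraries W3 and W4 (labelled 38 °C). In the A/HS regime 1 h of 38 °C came first, then 1 h of recovery (22 °C), and last 3 h of 43 °C. Plants of the B/HS regime went straight to 38 °C and stayed there for 3 h. The sources used here give no ecotype, age or mutant allele for these plants, and the labels give the tissue as root. The regimes differ at once in final temperature, in prior heat, in the recovery and in the time elapsed, and these cannot be told apart. They may also differ in the time of day, since the sources used here give no hour of start or harvest. Per the Methods the replicates were prepared independently from germination onwards, with 2 libraries per regime. The features were the 32548 nuclear genes of the count table, of which 23800 had a count in these libraries and 16511 passed the filter on low counts.

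As background, plants survive a heat that would otherwise kill them if a milder heat comes first. Heat shock factors bind heat shock elements and switch on heat shock proteins (HSPs), which keep other proteins from aggregating and refold them. Small HSPs hold unfolded proteins, HSP101 pulls aggregates apart, and HSP70 and HSP90 refold their clients with the help of partner proteins. Plants under heat also adjust membrane, hormone, cell wall and secondary metabolism genes.

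Nuclear genes took 4823686 and 4713575 counts in W5 and W6 and 4620229 and 4988222 counts in W3 and W4, the organelle genes having taken 58.12 to 65.44 % of all counts. All values below are CPM, that is, counts scaled to the TMM-adjusted size of the nuclear library, given for W5 and W6 and then for W3 and W4. A count of 0 allows up to 0.556 to 0.741 CPM in these libraries (3 counts, counting error only). The replicates differed by more than sampling noise, as their chi-square per degree of freedom was 10.3 between the A/HS libraries and 5.19 between the B/HS libraries. Of 16 root marker genes 12 did not pass the filter, *PLT2* (a root meristem factor) was at 0 in all 4 libraries, and *PLT1*, a relative of it, had 0 and 6 counts after A/HS and 0 and 2 after B/HS. The 4 that passed were *SHR*, *SCR*, *NRT2.1* and *PYK10*, and *PYK10* held most of the summed level of the list in every library. *RBCS1A*, a small subunit of Rubisco and a marker of green tissue, had 5407 and 4167 CPM after A/HS and 6764 and 6236 CPM after B/HS. The label root was thus not borne out by most of these markers. Library W6 stood apart in the root markers, whose summed level was 114.7 and 280.7 CPM after A/HS against 163.7 and 178.8 CPM after B/HS (32.2 and 52.8 against 26.4 and 27.4 CPM without *PYK10*). Leaf epidermis markers summed to 55.8 and 47.7 CPM after A/HS and to 48.4 and 58.6 CPM after B/HS. In bulk tissue, fewer cells of a type and less RNA per cell cannot be told apart.

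A total of 232 genes (1.41 % of those tested) were DE, called at an adjusted P-value under 0.05 in edgeR's quasi-likelihood test and a difference of at least 4-fold. Of these, 182 (1.1 %) were higher and 50 (0.303 %) lower after A/HS than after B/HS. At the adjusted P-value alone, 1004 genes (6.08 %) rose and 1222 (7.40 %) fell, and the median log2 fold change (A/HS over B/HS throughout) over all tested genes was 0.01. Upper quartile scaling put that median at 0.09 and turned the balance to 1122 higher and 843 lower. The exact permutation test of 2 libraries with 2 cannot go below a P of 0.333, so each call rests on the spread edgeR estimates across genes. Leaving out B/HS library W3 left 2 DE genes, without W4 there were 92, without W5 467 and without W6 249. Without W3 all 182 higher and all 50 lower genes had the same direction as with all libraries. Their medians were 2.34 and −2.47 (2.44 and −2.32 with all libraries). These genes were chosen with the same libraries, and 177 of the 182 and all 50 did not overlap between regimes. Their direction was thus nearly set in advance, and regimes that do not overlap are no further support for a called gene. Without W3 the spread within a regime comes from the A/HS libraries alone. The number of calls in a list without 1 library moves with the calls over all genes and is no result about that list. DESeq2 called 67 genes DE, 40 higher and 27 lower. The genes that rose by at least 4-fold were mostly low in the other regime, since 126 of the 182 (69.2 %) had under 10 counts in each B/HS library, against 21 of the 50 lower genes (42.0 %) in the A/HS libraries. Genes this low in 1 regime passed the filter through the other, so their direction was nearly set by the filter.

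**Figure D1:**
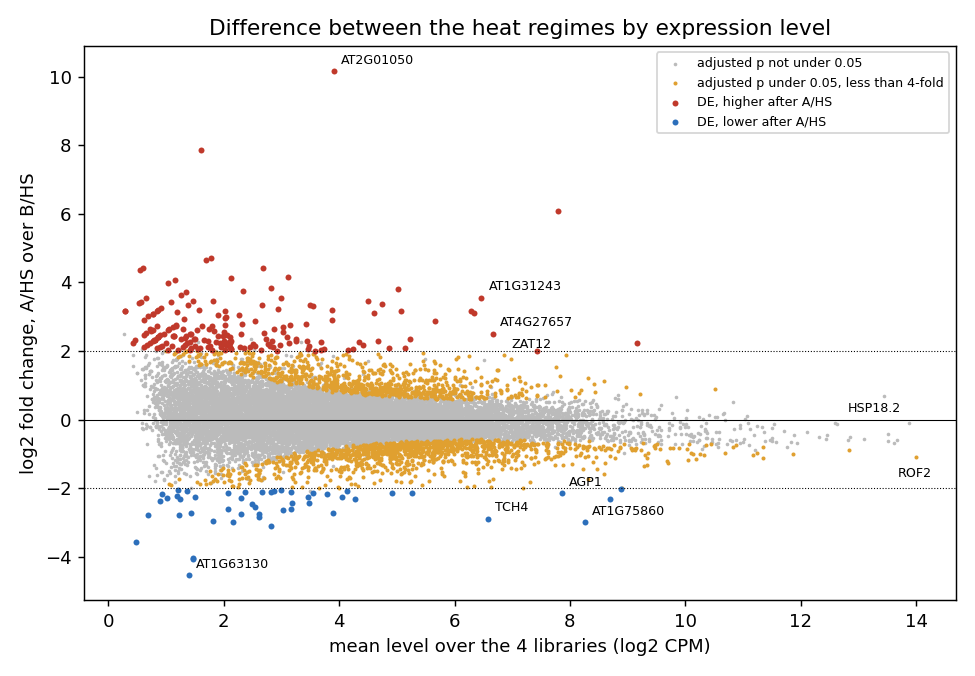
Difference between the regimes for the 16511 tested genes, as log2 fold change of A/HS over B/HS (vertical) against the mean level of the 4 libraries in log2 CPM (horizontal). Red points are the 182 genes higher after A/HS, blue points the 50 lower ones, orange points those past the adjusted P-value but under 4-fold, and dotted lines mark 4-fold. The red points lie mainly at low levels, and the highly expressed *HSP18.2* and *ROF2* lie within 4-fold.

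The clearest rise was that of AT1G31243 (chromosome 1, 11164639 to 11165022), a short gene of unknown function that overlaps AT1G31240, so that reads of either could be shared because strand use in counting is not known. It had 147 and 179 CPM in the A/HS libraries against 13.3 and 14.3 CPM in the B/HS libraries, 11.7-fold higher (log2 fold change 3.55 ± 0.21, here and below with its standard error, adjusted P = 6.74e-06, edgeR). The A/HS libraries stood far above both B/HS libraries, and this was the 1 rise that stayed DE without W3. AT4G27657 (chromosome 4, 13812989 to 13813701), also of unknown function, had 161 and 184 CPM after A/HS and 28.1 and 32.6 CPM after B/HS (2.50 ± 0.20, adjusted P = 6.49e-05, edgeR). AT4G10500 (chromosome 4, 6491017 to 6492578), an oxygenase of the 2-oxoglutarate family, had 18.15 and 24.5 CPM after A/HS against 1.48 and 2.70 CPM after B/HS (3.30 ± 0.36, adjusted P = 0.000778, edgeR). These 3 genes were chosen by the gap between regimes, so both A/HS libraries lay above both B/HS libraries by construction.

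Further rises were those of a kinase gene, an ankyrin protein gene and an aminotransferase gene. *ARCK1* (AT4G11890, chromosome 4, 7147865 to 7149942), a receptor-like cytosolic kinase gene that overlaps AT4G11900, had 15 and 15.9 CPM after A/HS and 2.47 and 2.08 CPM after B/HS (2.76 ± 0.35, adjusted P = 0.0013, edgeR). *ACD6* (AT4G14400, chromosome 4, 8294165 to 8299195), an ankyrin membrane protein that promotes salicylic acid responses, had 33.5 and 34.3 CPM after A/HS and 4.69 and 9.15 CPM after B/HS (2.27 ± 0.29, adjusted P = 0.0013, edgeR). *TAT3* (AT2G24850, chromosome 2, 10582074 to 10585216), a tyrosine aminotransferase induced by jasmonate and wounding, had 14.4 and 13.9 CPM after A/HS and 2.47 and 1.87 CPM after B/HS (2.70 ± 0.37, adjusted P = 0.00149, edgeR). In each of them the A/HS libraries were close to each other, while the gap to the B/HS libraries was the reason for their choice. The nitrate transporter gene *NRT2.1* (AT1G08090, chromosome 1, 2524023 to 2526322), which was also on the list of root markers, had 13.2 and 14.9 CPM after A/HS and 1.98 and 2.70 CPM after B/HS (2.56 ± 0.36, adjusted P = 0.00198, edgeR). AT4G10260, a pfkB-type sugar kinase, and AT5G10340, an F-box protein, differed by 6.21-fold and 4.92-fold (adjusted P = 0.00207, and 0.00205). The other members of this group, *TT5*, *FLS1* and *LDOX*, belong to flavonoid synthesis and are described with that pathway.

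The clearest fall was that of *TCH4* (AT5G57560, chromosome 5, 23307006 to 23308680), which encodes a xyloglucan endotransglucosylase that loosens and rejoins wall xyloglucan and is known as a touch- and heat-inducible gene. It had 23.2 and 22.03 CPM after A/HS against 173 and 163 CPM after B/HS, 7.42-fold lower after A/HS (−2.89 ± 0.19, adjusted P = 1.23e-05, edgeR), and was the only lower gene still DE without W3. AT1G75860 (chromosome 1, 28484129 to 28486077), annotated as a DNA ligase, had 40.4 and 97.3 CPM after A/HS against 643 and 447 CPM after B/HS (−2.99 ± 0.34, adjusted P = 0.000964, edgeR). The replicates of this gene were further apart than those of *TCH4*, and the regimes did not overlap by the choice of genes with a gap. *AGP1* (AT5G64310, chromosome 5, 25721733 to 25722678), an arabinogalactan protein of the cell surface, had 73.2 and 97.3 CPM after A/HS against 404 and 355 CPM after B/HS (−2.15 ± 0.21, adjusted P = 0.000496, edgeR).

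Other falls included a glucosinolate gene and regulators of transcription. *FMO GS-OX3* (AT1G62560, chromosome 1, 23159734 to 23162881), which oxygenates the side chain of methionine-derived glucosinolates, had 4.26 and 3.47 CPM after A/HS against 26.7 and 24.7 CPM after B/HS (−2.72 ± 0.28, adjusted P = 0.000616, edgeR). *DEAR2* (AT5G67190, chromosome 5, 26808876 to 26810116), a DREB-type factor with a repressor motif, had 2.22 and 2.24 CPM after A/HS against 14.8 and 13.5 CPM after B/HS (−2.65 ± 0.36, adjusted P = 0.00149, edgeR). *BBX32* (AT3G21150, chromosome 3, 7412445 to 7413727), a B-box regulator of light responses whose gene overlaps AT3G21140, had 2.41 and 3.26 CPM after A/HS against 19.3 and 11.4 CPM after B/HS (−2.42 ± 0.38, adjusted P = 0.00286, edgeR). AT4G03292 (ribonuclease H-like), AT3G28980, AT4G27350 and the pectin methylesterase inhibitor-like genes AT3G62820 and AT1G62760 were between 4.42-fold and 8.64-fold lower. The remaining member, *TAS2*, is a non-coding RNA described below. *GUT15*, another non-coding RNA, and AT2G42270, a U5 snRNP helicase, were named after their values were seen. *GUT15*, which overlaps AT2G10045, had 99.7 and 178 CPM after A/HS against 808 and 571 CPM after B/HS (−2.31 ± 0.28, adjusted P = 0.0012, edgeR). AT2G42270, which overlaps AT2G42280, had 161 and 208 CPM after A/HS against 942 and 573 CPM after B/HS (−2.04 ± 0.26, adjusted P = 0.0013, edgeR). Both were among the more abundant DE genes.

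**Figure D2:**
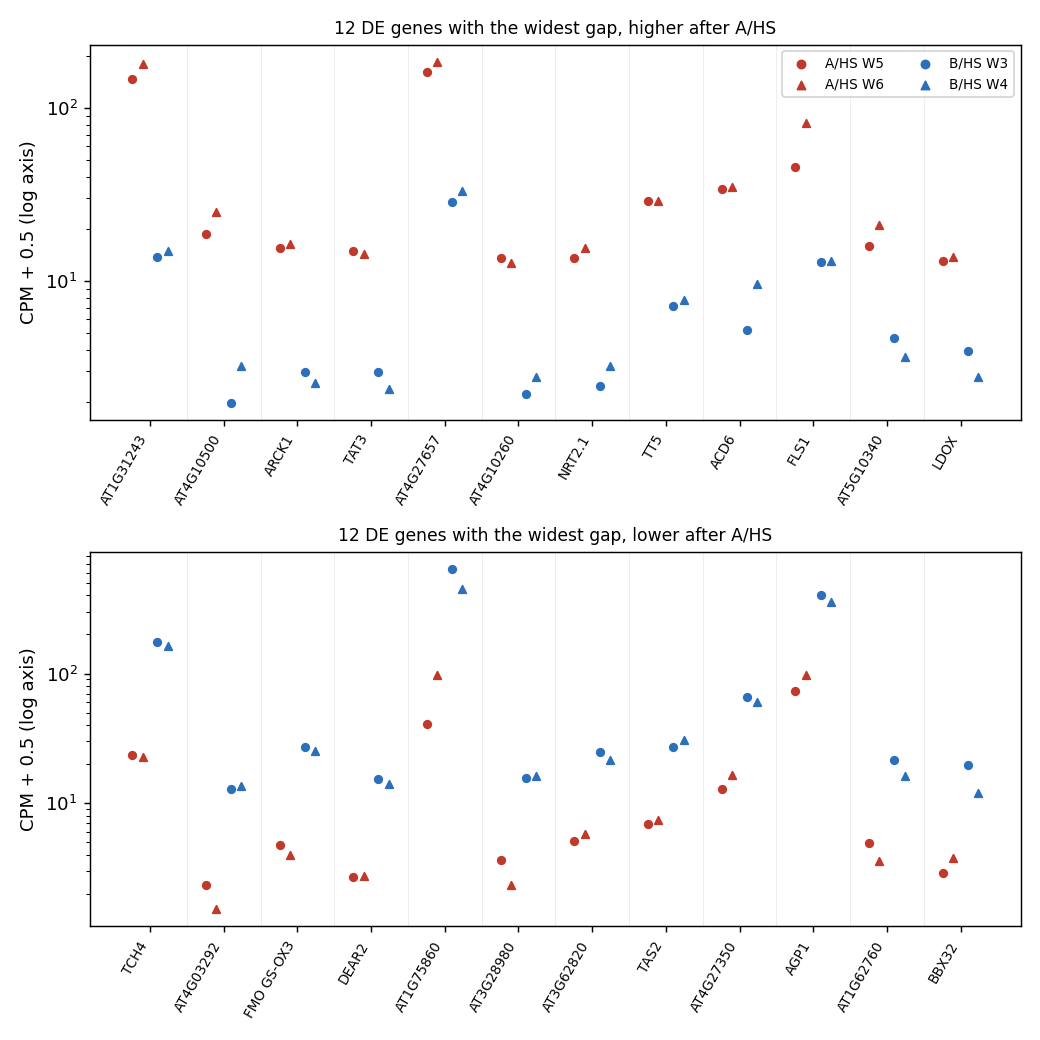
Level in each library (CPM plus 0.5, log axis) of the 12 DE genes per direction with the widest gap between regimes, among those with at least 50 counts in each library of the higher regime. Red marks are the A/HS libraries W5 (circle) and W6 (triangle), blue marks the B/HS libraries W3 (circle) and W4 (triangle). The genes were chosen by this gap, so marks of the regimes do not overlap by construction, and *TCH4* had 23.2 and 22.0 CPM after A/HS against 173 and 163 CPM after B/HS.

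The heat shock protein genes that passed the test were lower after A/HS. Of 16 small HSP genes tested, 2 fell (12.5 %, against 7.40 % of all genes) and 0 rose (against 6.08 % of all genes), with a median log2 fold change of −0.43. These shares of all genes are the background of every list below. *HSP23.5* (AT5G51440), a mitochondrial small HSP, had 1214 and 1798 CPM after A/HS against 3590.0 and 2642 CPM after B/HS (−1.05 ± 0.27, adjusted P = 0.0261, edgeR). *HSP17.6II* (AT5G12020), of the cytosolic class II, had 4429.6 and 5778 CPM after A/HS against 10149 and 8918 CPM after B/HS (−0.90 ± 0.27, adjusted P = 0.0467, edgeR). Neither B/HS library overlapped the A/HS libraries in these called genes, which is no further support. *HSP18.2* (AT5G59720), of the cytosolic class I, had 12446 and 16647 CPM after A/HS and 16100.0 and 15285 CPM after B/HS and did not pass (−0.11 ± 0.30, adjusted P = 0.84, edgeR). The 16 genes together summed to 60656.3 and 83709.3 CPM after A/HS against 105551.8 and 87401.7 CPM after B/HS.

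Among the HSP100, HSP70, HSP90 and HSP60 chaperones, 5 of 30 tested genes fell (16.7 %, against 7.40 % of all genes), 0 rose (against 6.08 %), 28 had a negative log2 fold change, and the median was −0.57. *HSC70-1* (AT5G02500), the main constitutive cytosolic HSP70, had 2496 and 2455 CPM after A/HS against 5568 and 4383 CPM after B/HS (−1.01 ± 0.25, adjusted P = 0.0229, edgeR). The mitochondrial chaperonin gene HSP60 (AT3G23990) had 599 and 692 CPM after A/HS against 1708 and 1215 CPM after B/HS (−1.18 ± 0.24, adjusted P = 0.00873, edgeR). *HSP90.6* (AT3G07770), an organellar HSP90, and *CPHSC70-2* (AT5G49910), a plastid HSP70, fell by 0.82 and 0.83 on the log2 scale (adjusted P = 0.0193, and 0.0213). The strongly heat-inducible *HSP70B* (AT1G16030) had 9042 and 11626 CPM after A/HS and 17443 and 13895 CPM after B/HS, and *HSP90.1* (AT5G52640) had 9295 and 9966 CPM after A/HS and 17225 and 14048 CPM after B/HS. Neither passed the test (adjusted P = 0.189, and 0.117). HSP70 and HSP90 genes have close copies, and how reads with several matches were counted is not known.

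The chaperone partners showed the lowest median of the heat shock lists, −0.80, with 4 of 11 tested genes lower and 0 higher. *SGT1A* (AT4G23570), a cochaperone of HSP90, had 141 and 181 CPM after A/HS against 501 and 369 CPM after B/HS (−1.43 ± 0.22, adjusted P = 0.00273, edgeR). *ROF2* (AT5G48570), a peptidyl-prolyl isomerase that binds HSP90, had 8985 and 11979 CPM after A/HS against 24792 and 19630.1 CPM after B/HS (−1.08 ± 0.31, adjusted P = 0.0366, edgeR). *HOP2* (AT1G62740), which links HSP70 to HSP90, and the J protein *ATJ2* (AT5G22060) fell by 0.98 and 0.80 on the log2 scale (adjusted P = 0.0259, and 0.0192). Without W3 the small HSPs, chaperones and partners had 0 calls and medians of −0.38, −0.45 and −0.59. Without W6 they had 6, 13 and 8 falls, without W5 1, 10 and 5 (with 1 rise among the small HSPs), without W4 0, 0 and 1, and DESeq2 gave 4, 14 and 7 falls.

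**Figure D3:**
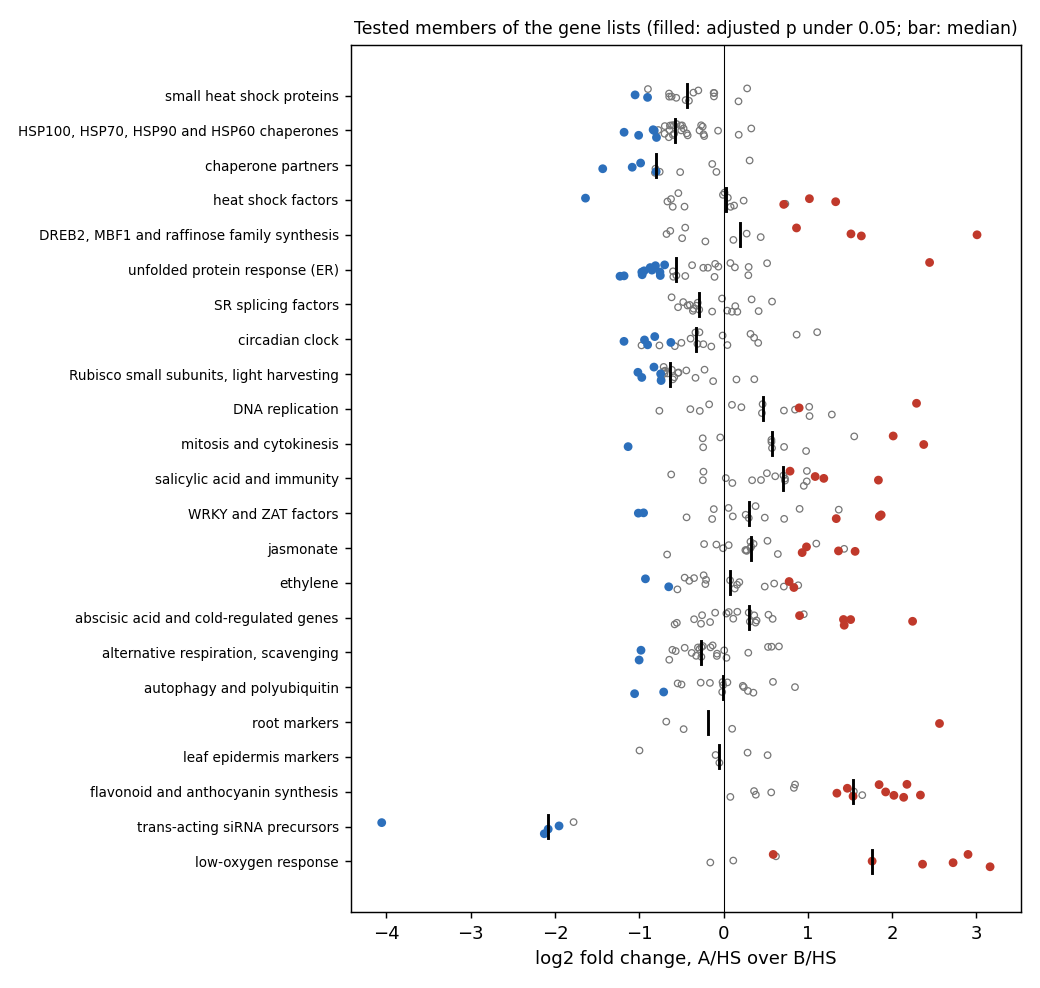
Log2 fold change (A/HS over B/HS, horizontal) of each tested gene in 23 gene lists (vertical), with red or blue filled points for genes past the adjusted P-value and open points for the others, and a black bar at each median. The medians of the heat shock protein, unfolded protein response and light-harvesting lists lie left of 0, while those of flavonoid synthesis (median 1.54) and low-oxygen response (median 1.76), which were chosen after their values were seen, lie right of 0.

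Heat shock factor (HSF) genes moved both ways, with 3 of 16 tested genes higher, 1 lower and a median of 0.03 (−0.105 without W5, −0.115 without W6 and −0.034 without W4). *HSFA3* (AT5G03720), which acts downstream of *DREB2A*, had 32.2 and 37.9 CPM after A/HS against 127 and 91.7 CPM after B/HS (−1.64 ± 0.21, adjusted P = 0.0013, edgeR). *HSFA1E* (AT3G02990), one of the constitutive class A1 factors, had 55.9 and 48.6 CPM after A/HS against 18.8 and 22.7 CPM after B/HS (1.33 ± 0.21, adjusted P = 0.00276, edgeR). *HSFB2A* (AT5G62020), a class B repressor, had 191 and 235 CPM after A/HS against 137 and 123 CPM after B/HS (0.71 ± 0.19, adjusted P = 0.0318, edgeR). *HSFA7B* rose as well (1.02 ± 0.32, adjusted P = 0.0493, edgeR), with W5 at 57.2 CPM beside W3 at 54.3 CPM. *HSFA2* (AT2G26150), the main heat-inducible factor of lasting thermotolerance, had 1574 and 3023 CPM after A/HS and 4227 and 2852 CPM after B/HS, with regimes that overlapped (−0.62 ± 0.32, adjusted P = 0.205, edgeR). Without W3 the list had 0 calls, and without W4 1 in each direction.

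In the list of DREB2 factors, MBF1 and raffinose family synthesis, 4 of 12 genes rose, 0 fell, and the median was 0.20. *DREB2A* (AT5G05410), a factor of drought and heat responses whose gene overlaps AT5G05420, had 317 and 351 CPM after A/HS against 178 and 189 CPM after B/HS (0.87 ± 0.19, adjusted P = 0.0132, edgeR). Galactinol synthases make the donor for the protective raffinose sugars, and they did not move alike. *GOLS2* (AT1G56600) had 117 and 130.2 CPM after A/HS against 43.9 and 42.8 CPM after B/HS (1.51 ± 0.18, adjusted P = 0.00115, edgeR). *GOLS4* (AT1G60470) rose by 3.11-fold (adjusted P = 0.0327, edgeR). *GOLS3* (AT1G09350) had 18 and 12 counts after A/HS and 1 and 2 counts after B/HS, a ratio of 8.60 (95 % counting interval 2.68 to 44.1) with an adjusted P = 0.0176, edgeR. This gene passed the filter through the A/HS libraries, so its direction was nearly set by the filter. *GOLS1* (AT2G47180), which overlaps AT2G47170, had 2596 and 3430.4 CPM after A/HS and 5640.4 and 3988 CPM after B/HS and did not pass (−0.68 ± 0.27, adjusted P = 0.114, edgeR). *MBF1C*, a heat-induced coactivator, was also not past the threshold (−0.49 ± 0.24, adjusted P = 0.186, edgeR). Without W6 the list had 3 rises and 3 falls, without W3 0 calls and without W4 1 rise, and its median was −0.02 over genes with at least 10 counts in every library.

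Genes of the unfolded protein response of the endoplasmic reticulum (ER), which restore folding of secreted proteins, were lower after A/HS in 11 of 27 tested genes and higher in 1, with a median of −0.56. *P58IPK* (AT5G03160), a J protein of the ER lumen, had 75.2 and 86.1 CPM after A/HS against 208 and 158 CPM after B/HS (−1.18 ± 0.20, adjusted P = 0.00412, edgeR). *TIN1* (AT5G64510), a gene known to be induced by tunicamycin, had 91.9 and 117 CPM after A/HS against 292 and 198 CPM after B/HS (−1.23 ± 0.23, adjusted P = 0.00623, edgeR). *PDIL2-2* (AT1G04980), a protein disulfide isomerase, had 90.21 and 90.8 CPM after A/HS against 193 and 161 CPM after B/HS (−0.96 ± 0.19, adjusted P = 0.00796, edgeR). In these called genes both A/HS libraries lay below both B/HS libraries, which is no further support. The exception was *SAR1A* (AT1G09180), a small GTPase of vesicle budding from the ER, with 6.67 and 5.92 CPM after A/HS against 1.48 and 0.832 CPM after B/HS (2.45 ± 0.50, adjusted P = 0.00966, edgeR). Being low after B/HS, it passed the filter through the A/HS libraries, so its direction was nearly set by the filter. The abundant calreticulin gene *CRT1* (AT1G56340) had a log2 fold change of −0.60 ± 0.20 and did not pass (adjusted P = 0.0632, edgeR). DESeq2 gave 13 falls and 0 rises, while without W3 there were 0 calls (median −0.44) and without W4 2 falls.

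Of the genes of salicylic acid and immunity, 4 of 19 rose, 0 fell and 16 had a positive log2 fold change, with a median of 0.71. *PAL1* (AT2G37040), which opens the phenylpropanoid pathway by deaminating phenylalanine, had 112 and 127 CPM after A/HS against 31.8 and 34.9 CPM after B/HS (1.84 ± 0.19, adjusted P = 0.000584, edgeR). *PAL2* (AT3G53260), its relative, had 82.2 and 80.6 CPM after A/HS against 47.6 and 46.6 CPM after B/HS (0.79 ± 0.18, adjusted P = 0.0154, edgeR). *SARD1* and *EDS1*, regulators of salicylic acid synthesis and immunity, rose by 2.28-fold and 2.12-fold (adjusted P = 0.0291, and 0.0349). *PR1* (AT2G14610), the classic marker gene of salicylic acid responses, did not join them, with 42.2 and 86.3 CPM after A/HS and 101 and 95.8 CPM after B/HS (−0.62 ± 0.27, adjusted P = 0.135, edgeR). *LURP1* (AT2G14560), needed for defence against an oomycete and named after its values were seen, had 61.3 and 78.8 CPM after A/HS against 17.3 and 18.9 CPM after B/HS (1.95 ± 0.21, adjusted P = 0.000704, edgeR). Without W3 the list had 0 calls, without W4 1 rise, and DESeq2 gave 2.

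Jasmonate genes rose in 4 of 20 tested cases and fell in 0, with a median of 0.32, and the genes past the threshold encode synthesis enzymes. *OPR3* (AT2G06050), a reductase of jasmonate synthesis, had 34.6 and 34.7 CPM after A/HS against 13.8 and 13.1 CPM after B/HS (1.36 ± 0.22, adjusted P = 0.00317, edgeR). *AOC2* (AT3G25770), an allene oxide cyclase, had 78.9 and 78.8 CPM after A/HS against 44.2 and 38.5 CPM after B/HS (0.93 ± 0.18, adjusted P = 0.00819, edgeR). *AOC3* and *JAR1*, which conjugates jasmonate to isoleucine, rose by 2.95-fold and 1.98-fold (adjusted P = 0.0424, and 0.0182). *LOX2* (AT3G45140), a plastid lipoxygenase of the same pathway, had 76.1 and 52.0 CPM after A/HS and 92.6 and 44.1 CPM after B/HS, with overlapping regimes (adjusted P = 0.877, edgeR). Without W6 9 jasmonate genes rose, and without W3 or W4 0 did.

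The WRKY and ZAT factors gave 3 rises and 2 falls among 17 tested genes, with a median of 0.30. *ZAT12* (AT5G59820), a zinc finger factor of oxidative and abiotic stress, had 146 and 220.3 CPM after A/HS against 48.6 and 51.4 CPM after B/HS (1.87 ± 0.22, adjusted P = 0.00108, edgeR). *WRKY6* (AT1G62300), a factor of senescence and defence, had 24.5 and 25.5 CPM after A/HS against 8.39 and 11.2 CPM after B/HS (1.34 ± 0.25, adjusted P = 0.0071, edgeR). *WRKY26* (AT5G07100), known for a part in thermotolerance, fell instead (−0.95 ± 0.28, adjusted P = 0.0443, edgeR), and its relative *WRKY25* did not pass (−0.12 ± 0.19, adjusted P = 0.724, edgeR). In the ethylene list, 2 of 19 genes rose and 2 fell (against 6.08 % and 7.40 % of all genes), with a median of 0.08 that was −0.18 without W5 and −0.053 without W3. *CTR1* (AT5G03730), a kinase that represses ethylene signalling, had 65.0 and 51.2 CPM after A/HS against 104 and 117 CPM after B/HS (−0.93 ± 0.19, adjusted P = 0.0102, edgeR). The ethylene-forming oxidase gene *ACO4* (AT1G05010) rose (0.84 ± 0.19, adjusted P = 0.0145, edgeR) and the receptor gene *ETR2* fell (−0.65 ± 0.20, adjusted P = 0.0484, edgeR). Without W3 neither list had a call, and without W4 the WRKY and ZAT list had 1 rise and the ethylene list 0 calls.

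Among abscisic acid and cold-regulated genes, 5 of 24 rose and 0 fell, with a median of 0.31. *RD29A* (AT5G52310), a target of DREB factors and of abscisic acid, had 160.2 and 149.8 CPM after A/HS against 58.7 and 56.1 CPM after B/HS (1.43 ± 0.18, adjusted P = 0.0013, edgeR). *RD22* (AT5G25610), a dehydration-responsive gene, had 65.6 and 66.1 CPM after A/HS against 37.0 and 33.5 CPM after B/HS (0.90 ± 0.18, adjusted P = 0.00956, edgeR). *COR15A* (AT2G42540), which protects plastid membranes in the cold, had 37.2 and 24.7 CPM after A/HS against 17.03 and 6.45 CPM after B/HS (1.42 ± 0.36, adjusted P = 0.0248, edgeR), and its replicates differed more. The dehydrin genes *COR47* and *ERD10* were abundant and did not pass (0.12 ± 0.28 and 0.06 ± 0.24, adjusted P = 0.821, and 0.893). Without W6 the list median was 0.01 with 5 rises, and without W3 or W4 there were 0 calls.

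The 250 bases before the annotated start of *RD29A* (chr5:21240467-21240716, plus strand, TAIR10.1) are printed because they hold the element that DREB factors bind, with each match of CCGAC in capitals. The sequence is from RefSeq.
RD29A: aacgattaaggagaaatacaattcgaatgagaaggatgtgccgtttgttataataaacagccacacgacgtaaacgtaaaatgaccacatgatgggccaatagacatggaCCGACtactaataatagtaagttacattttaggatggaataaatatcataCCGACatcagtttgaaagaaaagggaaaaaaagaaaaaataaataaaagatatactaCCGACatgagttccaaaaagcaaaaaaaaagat
The motif CCGAC, sought on both strands of the same window, occurred in 13.3 % of 16311 tested protein-coding genes, in 10.7 % of 168 genes higher by at least 4-fold, in 8 of 45 lower ones, and in 12.5 % and 20 % of the genes higher and lower at the adjusted P-value alone. The heat shock element GAANNTTC occurred in 9.31 % of all these genes, in 10 of the 168 higher and in 6 of the 45 lower DE genes, while at the adjusted P-value alone the order was the other way, with 10.4 % of the higher and 8.8 % of the lower genes. A match of letters is not a site in use.

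Of 17 tested genes of flavonoid and anthocyanin synthesis 9 rose after A/HS, 4 of them DE, 0 fell, with a median of 1.54 against 0.01 for all genes. This list was assembled after the values were seen, so its counts are a description. Flavonols and anthocyanins are phenylpropanoid pigments that absorb ultraviolet light and quench radicals. The entry enzyme of the pathway, chalcone synthase (*TT4*, AT5G13930, overlapping AT5G13940), had 245 and 396 CPM after A/HS against 103 and 117 CPM after B/HS (1.54 ± 0.24, adjusted P = 0.00272, edgeR). Chalcone isomerase (*TT5*, AT3G55120, chromosome 3, 20430059 to 20431597) had 28.5 and 28.4 CPM after A/HS against 6.67 and 7.28 CPM after B/HS (2.02 ± 0.25, adjusted P = 0.00126, edgeR). Flavonol synthase (*FLS1*, AT5G08640, chromosome 5, 2803833 to 2805606) had 45.0 and 80.8 CPM after A/HS against 12.3 and 12.5 CPM after B/HS (2.34 ± 0.28, adjusted P = 0.00108, edgeR). Each A/HS library of these 3 called genes stood above each B/HS library, which is no further support, and for *TT4* and *FLS1* W6 stood above W5.

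On the anthocyanin branch, *DFR* (AT5G42800), which reduces dihydroflavonols, had 24.3 and 30.6 CPM after A/HS against 9.63 and 4.99 CPM after B/HS (1.92 ± 0.31, adjusted P = 0.00305, edgeR). *LDOX* (AT4G22880, chromosome 4, 12004726 to 12006209), which oxidizes leucoanthocyanidins, had 12.6 and 13.3 CPM after A/HS against 3.46 and 2.29 CPM after B/HS (2.18 ± 0.36, adjusted P = 0.00365, edgeR). The flavonol rhamnosyltransferase gene *UGT78D1* (AT1G30530) had 42.0 and 51.2 CPM after A/HS against 16.8 and 16.8 CPM after B/HS (1.47 ± 0.21, adjusted P = 0.00211, edgeR). Upstream, the coumarate ligase genes *4CL2* and *4CL3* rose by 4.40-fold and 2.54-fold (adjusted P = 0.00656, and 0.00647), while *4CL1* and *C4H* did not pass (0.57 ± 0.20 and 0.38 ± 0.19). Among regulators, *MYB12* and *MYB111*, activators of flavonol genes, gave 1.65 ± 0.65 and 0.08 ± 0.39 without passing (adjusted P = 0.106, and 0.915), and *PAP2* and *TT8* did not pass (adjusted P = 0.0841, and 0.113). *F3H*, the hydroxylase between *TT5* and *DFR*, had 0 and 3 counts after A/HS and 1 and 2 counts after B/HS and was not tested. The whole list summed to 740.8 and 1030.1 CPM after A/HS against 407.3 and 420.0 CPM after B/HS. It had 9 rises without W6 (median 1.16), 8 with DESeq2, 2 without W4 and 0 without W3 (median 1.43).

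Promoters of *TT4* (chr5:4488226-4488475, plus strand) and *DFR* (chr5:17166033-17166282, minus strand, written 5′ to 3′ along the gene) are shown because both genes rose and both windows hold the G-box, a motif bound by light and stress factors. Capitals mark each match of ACGTG on either strand, which forms part of the G-box CACGTG.
TT4: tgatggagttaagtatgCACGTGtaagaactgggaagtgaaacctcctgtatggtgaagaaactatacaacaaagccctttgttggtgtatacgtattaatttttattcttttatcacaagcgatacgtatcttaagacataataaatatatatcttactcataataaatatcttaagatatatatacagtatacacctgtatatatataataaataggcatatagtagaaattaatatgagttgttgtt
DFR: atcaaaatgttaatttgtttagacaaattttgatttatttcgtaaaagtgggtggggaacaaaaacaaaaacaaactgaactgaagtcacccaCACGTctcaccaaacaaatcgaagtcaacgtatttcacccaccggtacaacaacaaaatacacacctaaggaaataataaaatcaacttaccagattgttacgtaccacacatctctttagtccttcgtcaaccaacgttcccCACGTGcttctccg
The G-box occurred in 4 of the 17 tested flavonoid promoters and in 7.57 % of all 16311. ACGTG occurred in 6 of the 17 (35.3 %), in 60 of 168 DE higher genes (35.7 %), in 11 of 45 DE lower genes (24.4 %) and in 23.8 % of all. At the adjusted P-value alone the share with ACGTG was 25.6 % in both directions. These shares are descriptions, and the sequences are from RefSeq.

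Of 8 precursors of trans-acting siRNAs (TAS), also listed after the values were seen, 5 passed the filter and 4 of these fell after A/HS, 3 of them DE. Some were so low after A/HS that they passed only through the B/HS libraries, so this count is no support for a fall of the group. In *A. thaliana*, the microRNA miR173 guides the cutting of TAS1 and *TAS2* transcripts, whose fragments become short RNAs that target pentatricopeptide repeat (PPR) genes and a few others, while *TAS3* is cut through another microRNA, miR390. The miR173 sequence and the site found for it in the TAS1 and *TAS2* precursors are shown as background. The part of this site in the falls was not tested. In the microRNA capitals mark the seed (bases 2 to 8), and in the sites they mark bases complementary to miR173, all taken from the TAIR10.1 genome as RefSeq gives it.
miR173-5p: tTCGCTTGcagagagaaatcac
TAS1A: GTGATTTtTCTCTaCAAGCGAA
TAS1B: GTGATTTtTCTCaaCAAGCGAA
TAS1C: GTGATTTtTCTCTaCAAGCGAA
TAS2: GTGATTTtTCTCTcCAAGCGAA
The microRNA lies at chr3:8236161-8236182 on the plus strand and the sites, all on the minus strand, at chr2:11722081-11722102, chr1:18549660-18549681, chr2:16537890-16537911 and chr2:16539991-16540012. The sites of *TAS1A*, *TAS1C* and *TAS2* had 20 of 22 complementary bases and that of *TAS1B* 19, while the best window of *TAS3* had 13.

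*TAS2* (AT2G39681, chromosome 2, 16539384 to 16540417) had 6.48 and 6.94 CPM after A/HS against 26.7 and 30.1 CPM after B/HS (−2.08 ± 0.25, adjusted P = 0.0012, edgeR). *TAS1A* had 2.41 and 1.43 CPM after A/HS against 5.68 and 11.2 CPM after B/HS (−2.13 ± 0.48, adjusted P = 0.0155, edgeR). *TAS1B* had 0 and 3 counts after A/HS against 19 and 28 counts after B/HS, a ratio of about 18 of B/HS over A/HS (95 % counting interval 5.86 to 91.5) with an adjusted P = 0.00621, edgeR. All A/HS values of these called genes lay below all B/HS values, which is no further support. *TAS1C* had 2.41 and 1.22 CPM after A/HS against 6.17 and 8.11 CPM after B/HS (−1.95 ± 0.47, adjusted P = 0.0192, edgeR). *TAS3*, which carries no such site, had 0.556 and 2.65 CPM after A/HS against 3.95 and 6.86 CPM after B/HS and did not pass (−1.78 ± 0.60, adjusted P = 0.0668, edgeR). Whether *TAS3* differs from the others was not tested. The TAS1 genes are near-identical in part, so reads may be split between them, *TAS1B* overlaps AT1G07613 and *TAS1C* overlaps AT2G39670. The 8 listed precursors summed to 12 and 13.1 CPM after A/HS against 47.1 and 62.6 CPM after B/HS. Without W6 5 precursors fell, without W4 1, without W3 0, and DESeq2 gave 1.

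The stretch of chromosome 1 from AT1G62590 to AT1G63400 holds 15 genes taken here as PPR genes, with other genes between them. Their product names are PPR, tetratricopeptide repeat (TPR)-like or, for *RPF2*, RNA processing factor. PPR proteins bind and process RNA in mitochondria and plastids. Only 4 of the 15 passed the filter, through the B/HS libraries where they were high, so that their being lower after A/HS was set by the filter and is given as a description. AT1G63130 had 1 and 1 counts after A/HS against 21 and 24 counts after B/HS, a ratio of 26.2 (95 % counting interval 6.83 to 223, adjusted P = 0.00219, edgeR). AT1G62910 had 1 and 1 counts after A/HS against 10 and 13 counts after B/HS (ratio 13.4, interval 3.30 to 117, adjusted P = 0.0112, edgeR). *RPF2* and *RPF3*, which process mitochondrial transcripts, had 3 and 3 counts (*RPF2*) and 5 and 4 counts (*RPF3*) after A/HS, against 11 and 17 counts (*RPF2*) and 17 and 16 counts (*RPF3*) after B/HS (adjusted P = 0.0245, and 0.0285). Among the 11 that were not tested, AT1G62680 had 4 and 4 counts after A/HS and 5 and 5 after B/HS, and AT1G62590 had 4 and 4 counts after A/HS and 1 and 9 after B/HS. The 15 genes together had 31 and 29 counts after A/HS against 96 and 126 counts after B/HS. Over the 167 tested genes whose product name holds the letters pentatrico or PPR (in either case), the median was 0.02, with 9 rises and 10 falls. *RPF2*, *RPF3* and AT1G63130 have other product names and are not among these 167. These genes are similar in sequence, so shared reads cannot be told from separate ones. The stretch was picked after the values were seen.

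**Figure D4:**
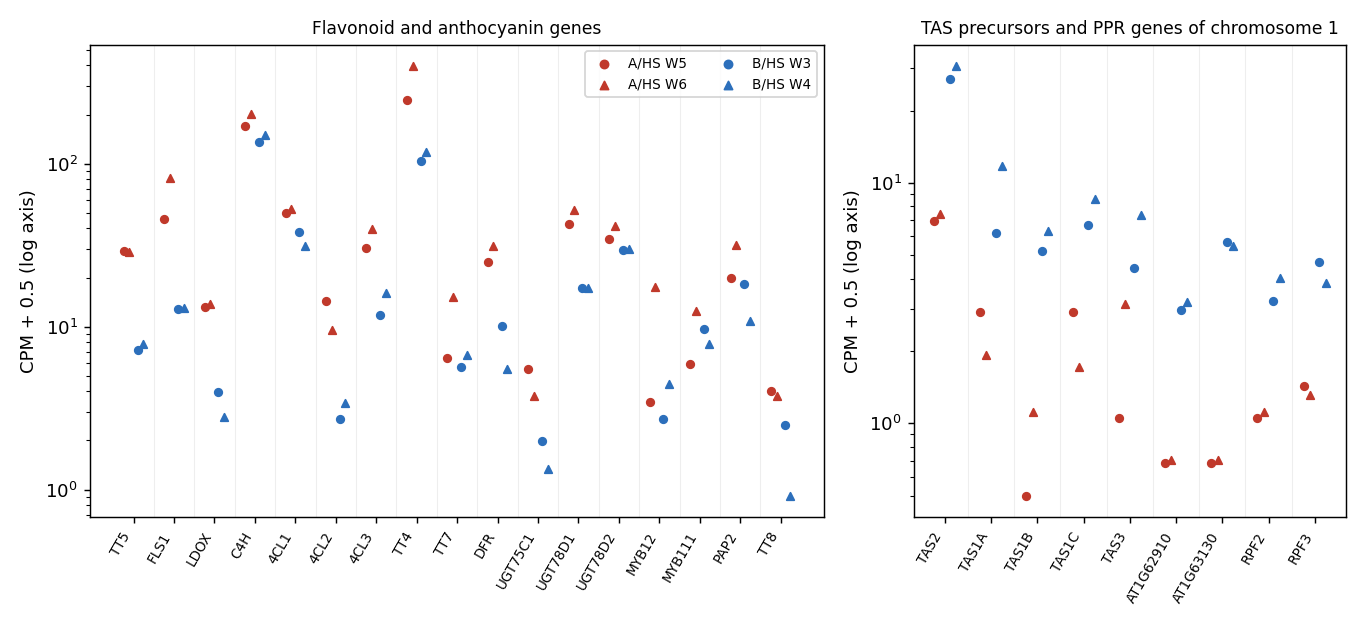
Level in each library (CPM plus 0.5, log axis) of the 17 tested flavonoid and anthocyanin genes (left) and of 5 TAS precursors with 4 PPR genes of chromosome 1 (right). Red marks are the A/HS libraries W5 (circle) and W6 (triangle), blue marks the B/HS libraries W3 (circle) and W4 (triangle). *TT5* had 28.5 and 28.4 CPM after A/HS against 6.67 and 7.28 CPM after B/HS, while *TAS2* had 6.48 and 6.94 CPM after A/HS against 26.7 and 30.1 CPM after B/HS.

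Cell wall families were grouped by product name after their values were seen. Xyloglucan endotransglucosylases fell in 6 of 17 tested genes and rose in 0, with a median of −0.54. Beside *TCH4*, *XTR6* (AT4G25810) had 56.9 and 60.8 CPM after A/HS against 249 and 220.0 CPM after B/HS (−1.99 ± 0.19, adjusted P = 0.000488, edgeR). *XTH16* (AT3G23730) had 20.9 and 20.4 CPM after A/HS against 58.01 and 55.1 CPM after B/HS (−1.45 ± 0.19, adjusted P = 0.00149, edgeR). The family summed to 604.8 and 578.8 CPM after A/HS against 1245.8 and 1185.3 CPM after B/HS, with close replicates. Expansins, which loosen walls at acid pH, gave 4 falls and 0 rises among 14 tested genes. *EXLA2* (AT4G38400) had 5.001 and 7.96 CPM after A/HS against 37.8 and 26.4 CPM after B/HS (−2.31 ± 0.30, adjusted P = 0.0013, edgeR), while the median of the family was 0.19. Arabinogalactan proteins fell in 7 of 25 tested genes and rose in 2, with a median of −0.25 that was 0.17 without W5 and 0.064 without W3. *FLA8* (AT2G45470), a fasciclin-like member, had 14.3 and 19.0 CPM after A/HS against 62.0 and 54.9 CPM after B/HS (−1.81 ± 0.22, adjusted P = 0.00108, edgeR). *FLA13* (AT5G44130) had 87.6 and 56.1 CPM after A/HS against 222 and 172 CPM after B/HS (−1.45 ± 0.23, adjusted P = 0.00305, edgeR). Without W3 the endotransglucosylases had 1 fall (*TCH4*) and the other families 0. Without W4 the falls were 3, 3 and 4 for endotransglucosylases, expansins and arabinogalactan proteins, without W5 9, 4 and 7, and DESeq2 gave 6, 4 and 6. Leaving out W5 also gave 2, 3 and 9 rises.

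Proline-rich extensins, structural wall glycoproteins, were higher after A/HS in 11 of 13 tested genes, all 11 of them DE, with a median of 3.15. Over genes with at least 10 counts in every library 5 members remained, of which 3 rose, with a median of 3.14. Members low after B/HS passed the filter through the A/HS libraries, so their direction was nearly set by the filter. The robust fit called 2 of the 13. Most of their level after A/HS was in library W6. AT3G28550 had 48.7 and 234 CPM after A/HS against 10.1 and 21.2 CPM after B/HS (3.15 ± 0.56, adjusted P = 0.00523, edgeR). AT3G54580 had 43.9 and 247 CPM after A/HS against 10.9 and 22.5 CPM after B/HS (3.11 ± 0.60, adjusted P = 0.00734, edgeR). W6 held several times the level of W5 in both, and W5 still lay above both B/HS libraries. The family summed to 356.8 and 1195.8 CPM after A/HS against 188.8 and 269.7 CPM after B/HS. These genes are repetitive and alike in sequence, so the reads may be shared among them. Without W6 6 of 13 rose with a median of 1.48, without W5 13 of 14 did (3.87), without W4 2 and without W3 0 (2.51), and DESeq2 called 1.

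Peroxidases of the secretory class gave 10 rises (7 of them DE) and 2 falls among 34 tested genes, with a median of 0.77. Over genes with at least 10 counts in every library there were 3 rises and 2 falls among 20, with a median of 0.15. *RCI3* (AT1G05260) had 4.08 and 13.1 CPM after A/HS against 0.741 and 1.25 CPM after B/HS (3.04 ± 0.64, adjusted P = 0.0109, edgeR). Being low after B/HS, *RCI3* passed the filter through the A/HS libraries, so its direction was nearly set by the filter. AT1G05240 and AT1G05250 had the same 20 and 124 counts after A/HS, against 8 and 19 counts (AT1G05240) and 7 and 17 counts (AT1G05250) after B/HS and their reads may be shared. AT4G33420, which overlaps AT4G33430, fell instead, with 10 and 15.71 CPM after A/HS against 28.6 and 29.7 CPM after B/HS (−1.19 ± 0.26, adjusted P = 0.0129, edgeR). Without W6 2 peroxidases rose and 5 fell (median 0.19), without W5 24 rose and 3 fell, without W3 or W4 there were 0 calls, and DESeq2 gave 1 fall. The lectin gene AT1G52070 had 10.2 and 87.9 CPM after A/HS against 2.22 and 6.86 CPM after B/HS (3.38 ± 0.77, adjusted P = 0.0161, edgeR). The root marker sums given above were also highest in W6, with 280.7 CPM, and their part in the extensin, peroxidase and lectin results was not tested.

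**Figure D5:**
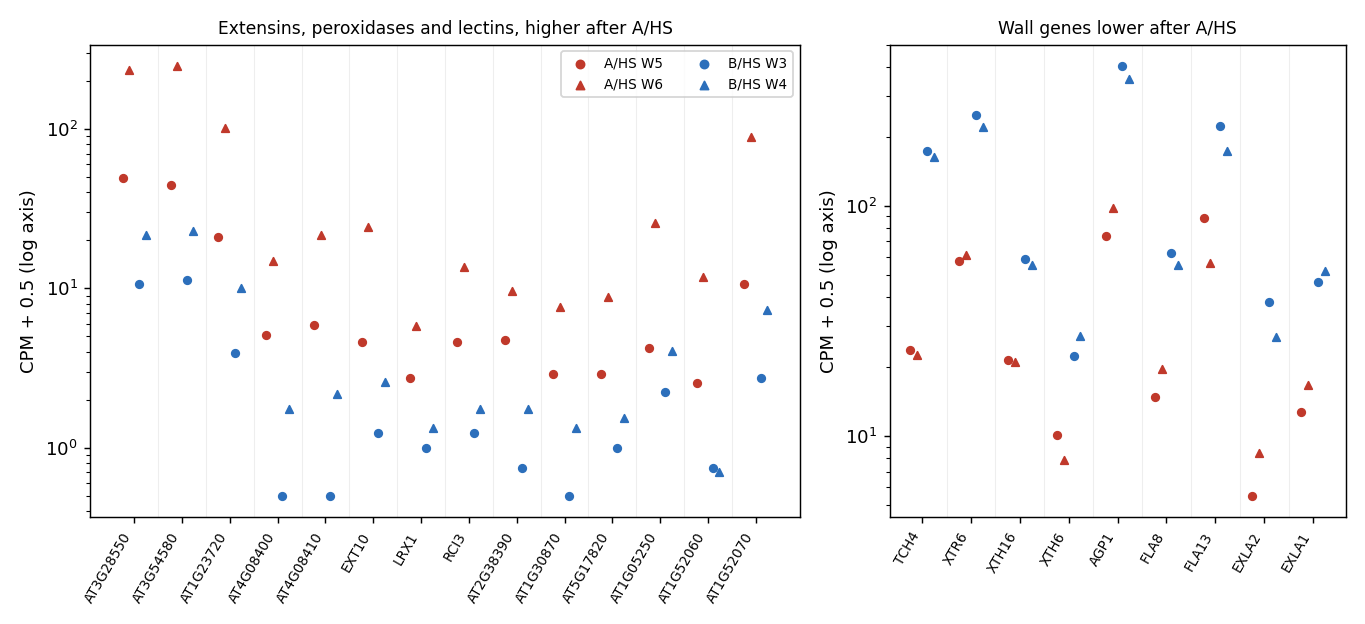
Level in each library (CPM plus 0.5, log axis) of extensin, peroxidase and lectin genes higher after A/HS (left) and of other wall genes lower after A/HS (right), all named by rule or after their values were seen. Red marks are the A/HS libraries W5 (circle) and W6 (triangle), blue marks the B/HS libraries W3 (circle) and W4 (triangle). On the left W6 mostly lies well above W5, for example 234 against 48.7 CPM in AT3G28550. On the right W5 and W6 lie close together in *XTR6* (56.9 and 60.8 CPM) and further apart in *FLA13* and *EXLA2*.

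Genes known for their response to low oxygen, listed after the values were seen, rose in 6 of 9 tested cases and fell in 0, with 4 DE and a median of 1.76. *PDC1* (AT4G33070), a pyruvate decarboxylase of ethanol fermentation, had 13.5 and 38.8 CPM after A/HS against 1.98 and 4.78 CPM after B/HS (2.90 ± 0.50, adjusted P = 0.00437, edgeR). *HB1* (AT2G16060), a non-symbiotic haemoglobin, had 8.15 and 14.1 CPM after A/HS against 1.73 and 2.50 CPM after B/HS (2.36 ± 0.44, adjusted P = 0.00623, edgeR). *ADH1* (AT1G77120), the alcohol dehydrogenase, had 13.2 and 42.6 CPM after A/HS against 6.17 and 9.98 CPM after B/HS (1.76 ± 0.45, adjusted P = 0.026, edgeR). W6 was above W5 in each. The sucrose synthase gene *SUS4* rose by 8.96-fold (adjusted P = 0.0202, edgeR) and *SUS1* by 1.51-fold (adjusted P = 0.0487, edgeR). *LBD41*, *HRA1* and *HRE1*, regulators of the same response, did not pass (−0.16 ± 0.39, 0.62 ± 0.56 and 0.12 ± 0.51). The list summed to 116.1 and 226.7 CPM after A/HS against 76.3 and 82.5 CPM after B/HS. Over genes with at least 10 counts in every library 3 members remained, of which 2 rose, with a median of 0.62. The root marker sums were also highest in W6 (280.7 CPM), and their part in this result was not tested. Without W6 3 genes rose and 1 fell (median 0.69), without W5 9 of 12 rose (2.46), without W4 1 and without W3 0 (1.36), and DESeq2 called 2.

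Of 22 tested nuclear genes for Rubisco small subunits, Rubisco activase and light-harvesting proteins of photosynthesis, 5 fell (22.7 %, against 7.40 % of all genes), 0 rose and 17 did not pass, with 20 negative log2 fold changes and a median of −0.64. *LHCB1.2* (AT1G29910), a major antenna protein of photosystem II, had 794 and 698 CPM after A/HS against 1716 and 1302 CPM after B/HS (−1.02 ± 0.23, adjusted P = 0.0154, edgeR). *LHCB6* (AT1G15820), a minor antenna protein, had 799 and 679.8 CPM after A/HS against 1617 and 1279 CPM after B/HS (−0.97 ± 0.23, adjusted P = 0.018, edgeR). *LHCB3* and *LHCB4.2* fell by 0.83 and 0.75 on the log2 scale (adjusted P = 0.0284, and 0.0461). *RBCS1A* and Rubisco activase (*RCA*, AT2G39730) did not pass (−0.44 ± 0.26 and −0.33 ± 0.27, adjusted P = 0.279, and 0.435). The list summed to 29503.7 and 22181.1 CPM after A/HS against 40745.2 and 35158.2 CPM after B/HS. W6 was the lowest library here and the highest in the root markers (280.7 CPM, and 52.8 CPM without *PYK10*), whose part in this result was not tested. Antenna genes of 1 type are near-identical, and their reads may be shared. The median was −0.81 without W5, −0.42 without W6, −0.51 without W3 and −0.78 without W4. DESeq2 gave 11 falls and the robust fit 8. Upper quartile scaling gave 3 falls, RLE scaling 4, and the fit over genes with at least 10 counts in every library 4.

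Clock genes fell in 5 of 22 cases (22.7 %, against 7.40 % of all genes) and rose in 0, with a median of −0.32. *CCA1* (AT2G46830), a morning-phased MYB factor, had 144 and 123 CPM after A/HS against 245 and 254 CPM after B/HS (−0.90 ± 0.19, adjusted P = 0.0109, edgeR). *RVE4* (AT5G02840), a related factor known for a part in heat responses, had 74.5 and 65.9 CPM after A/HS against 179.7 and 139 CPM after B/HS (−1.18 ± 0.20, adjusted P = 0.00365, edgeR). *LUX* and *PRR5*, evening and afternoon repressors, fell by 0.82 and 0.94 on the log2 scale (adjusted P = 0.0231, and 0.0279). The A/HS regime ran longer, and the hours of start and harvest are not given. A difference in the hour of harvest, if there was one, cannot be told apart from the regimes for these genes. Without W3 there were 0 calls, without W4 1 and without W5 7 falls with 2 rises.

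Genes of DNA replication rose in 2 of 15 tested cases (13.3 %, against 6.08 % of all genes) and fell in 0 (median 0.46). *RNR1* (AT2G21790), the large subunit of ribonucleotide reductase, had 26.9 and 20 CPM after A/HS against 12.6 and 12.7 CPM after B/HS (0.90 ± 0.25, adjusted P = 0.0345, edgeR). *POLA3*, a primase subunit, rose by 4.89-fold (adjusted P = 0.0196, edgeR). It passed the filter through the A/HS libraries, so its direction was nearly set by the filter. Over genes with at least 10 counts in every library, 3 of 13 replication genes rose and 0 fell, with a median of 0.50. Of 12 tested genes of mitosis and cytokinesis 2 rose, 1 fell, and the median was 0.57, although it was −0.003 over genes with at least 10 counts in every library. The cyclin genes *CYCA1;1* and *CYCB2;4* had 4.82 and 6.33 CPM and 3.15 and 5.30 CPM after A/HS against 1.48 and 1.25 CPM and 0.741 and 0.832 CPM after B/HS (adjusted P = 0.0208, and 0.0213). Both passed the filter through the A/HS libraries, so their direction was nearly set by the filter. Over genes with at least 10 counts in every library the list had 0 rises and 1 fall. *KN* (AT1G08560), the syntaxin of cell plate formation, fell (−1.13 ± 0.33, adjusted P = 0.0383, edgeR). Neither list had a call with DESeq2 or without W3 or W4.

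Histone genes, grouped by product name, gave 2 rises and 8 falls among 39 tested genes, with a median of −0.08 that was 0.002 under upper quartile scaling. The rises were those of the neighbouring genes AT4G40030 and AT4G40040, which encode the replacement histone H3.3. AT4G40030 had 121 and 126 CPM after A/HS against 48.6 and 56.6 CPM after B/HS (1.23 ± 0.18, adjusted P = 0.00235, edgeR). AT4G40040 had 342 and 409 CPM after A/HS against 204 and 212 CPM after B/HS (0.85 ± 0.20, adjusted P = 0.0169, edgeR). Among the falls, *HTA13* (an H2A gene that overlaps AT3G20680) had 9.45 and 6.12 CPM after A/HS against 28.6 and 20.8 CPM after B/HS (−1.65 ± 0.29, adjusted P = 0.00505, edgeR), and *RAT5*, also H2A, had 36.1 and 57.5 CPM after A/HS against 131 and 92.1 CPM after B/HS (−1.25 ± 0.24, adjusted P = 0.00782, edgeR). AT3G53650, annotated as a histone, fell by at least 4-fold (−2.12 ± 0.40, adjusted P = 0.00647, edgeR). These histone genes were named after their values were seen. Without W3 there were 0 calls, without W4 2 falls, and DESeq2 gave 2 rises and 5 falls. Cytosolic ribosomal protein genes gave 11 rises (3.86 %) and 5 falls (1.75 %) among 285 tested, with a median of 0.15 (−0.002 without W6). Without W5 they gave 55 rises (19.3 %, against 9.88 % of all genes in that fit) and 22 falls (7.72 %, against 11.6 %).

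The SR splicing factors choose splice sites. Of 19 tested genes 0 passed the threshold in edgeR's test and 1 fell by DESeq2, with a median of −0.29 (−0.23 without W6). In edgeR's test 4 of the 19 had an unadjusted P under 0.05, against 5015 of all 16511 genes. *SR45A* (AT1G07350) had 482 and 558 CPM after A/HS and 915 and 679.7 CPM after B/HS (−0.62 ± 0.22, adjusted P = 0.0815, edgeR), and *SR30* (AT1G09140) had 415 and 578 CPM after A/HS and 715 and 667 CPM after B/HS (−0.48 ± 0.22, adjusted P = 0.163, edgeR). In both, all A/HS values lay below all B/HS values, an order to which the exact permutation test gives a P of 0.333. Counts per gene do not separate splice forms. The study examined 3 *A. thaliana* genes by RT-PCR. Of these, *FBS1* (AT1G61340, chromosome 1, 22628264 to 22630020), an F-box gene induced by stress, had 129 and 181 CPM after A/HS against 106 and 86.5 CPM after B/HS and passed narrowly (0.68 ± 0.21, adjusted P = 0.0497, edgeR). *HSP60-2* (AT2G33210, chromosome 2, 14074767 to 14078772), a mitochondrial chaperonin, had 51.1 and 51.8 CPM after A/HS and 44.2 and 37.8 CPM after B/HS (0.33 ± 0.19, adjusted P = 0.257, edgeR). *HSP21* (AT4G27670, chromosome 4, 13818825 to 13819971), the plastid small HSP, had 2825 and 3579 CPM after A/HS and 4566 and 4179 CPM after B/HS (−0.45 ± 0.25, adjusted P = 0.246, edgeR). The last 2 did not pass the test.

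Alternative respiration and scavenging of oxygen radicals gave 2 falls and 0 rises among 23 tested genes (8.7 % lower, against 7.40 % of all genes, with a median of −0.26). *NAC013* (AT1G32870), a factor of mitochondrial stress signalling, had 67.2 and 84.7 CPM after A/HS against 153 and 147 CPM after B/HS (−0.98 ± 0.19, adjusted P = 0.00785, edgeR), and *OM66*, an outer mitochondrial membrane protein, fell as well (−1.001 ± 0.29, adjusted P = 0.0388, edgeR). The cytosolic ascorbate peroxidase genes *APX1* and *APX2* did not pass (−0.15 ± 0.23 and −0.32 ± 0.23). Of 16 genes for autophagy and polyubiquitin 2 fell (12.5 %, against 7.40 % of all genes) and 0 rose (median −0.008), namely *UBQ14* (−1.05 ± 0.21, adjusted P = 0.00797, edgeR) and *UBQ11* (−0.71 ± 0.21, adjusted P = 0.0437, edgeR), while *UBQ10* did not pass (−0.27 ± 0.23). Polyubiquitin genes share repeats, so their reads may be shared. Without W3 or W4 neither list had a call. Without W5 the respiration and scavenging list had 2 rises and 5 falls and the autophagy and polyubiquitin list 3 rises and 2 falls (median 0.131), and without W6 they had 1 rise and 3 falls and 0 rises and 5 falls.

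Some of the largest fitted differences came from genes near 0 in one regime or from single libraries. AT3G42160 (chromosome 3, 14314583 to 14315634), pectin lyase-like, had 27 and 35 counts after A/HS and 0 counts in both B/HS libraries, at least 8.90-fold higher against 3 counts per library (adjusted P = 0.00167, edgeR). AT2G01050 (chromosome 2, 68337 to 69884) took 41 and 257 counts after A/HS and 0 in both B/HS libraries, at least 44.0-fold higher (adjusted P = 0.00305, edgeR). Most of this level was in W6, and not every fit that left out no library called the gene (adjusted P up to 0.408, edgeR). It lies near the start of chromosome 2, beside ribosomal DNA. AT2G01330 and AT2G01080 lie in the same region and were high in W5 only. AT2G01330, which overlaps AT2G01320, had 4682 and 30 counts after A/HS against 29 and 28 counts after B/HS (adjusted P = 0.0163, edgeR), and AT2G01080 had 435 and 13 counts after A/HS against 14 and 20 counts after B/HS (adjusted P = 0.0357, edgeR). Without W5 their log2 fold changes were −0.09 and −0.53, neither past the threshold. AT3G22050 had 5 and 590 counts after A/HS against 17 and 21 counts after B/HS. Some tRNA genes that passed the filter through the A/HS libraries were high there, such as AT4G24565 (tRNA-Ser) with 124 and 48 counts after A/HS against 0 and 8 counts after B/HS (adjusted P = 0.00307, edgeR), and AT5G10525 (tRNA-Arg) with 39 and 26 counts after A/HS against 0 and 2 counts after B/HS (ratio 28.0, 95 % counting interval 7.44 to 236). Transfer RNAs are shorter than most cDNA fragments and exist in many copies, so these counts do not measure their abundance well.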

How the data were processed

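RNA-seq libraries of *A. thaliana* were made by the study from total RNA. Reads were trimmed by the authors (fastx toolkit) and aligned with TopHat (1.4.1 in the submitters' processing notes) to TAIR10. They deposited raw read counts per gene, without normalization. The program that counted the reads and its use of strand and of reads with several matches are not given in the sources used here, and DESeq2 is named in the submitters' notes. Groups came from the temperature in the labels (43 °C for A/HS, 38 °C for B/HS).

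Nuclear genes (AT1G to AT5G) of the 4 libraries were tested with edgeR 4.0.16 in R 4.3.3 (TMM, filterByExpr, glmQLFit and glmQLFTest, Benjamini–Hochberg over 16511 genes). The filter needs enough counts in at least 2 libraries, so a gene near 0 in 1 regime was tested only if it was high in the other, and list counts are over tested members. Genes with an adjusted P-value under 0.05 and at least a 4-fold difference were called DE. The spread had a common biological coefficient of variation of 0.167, with 2 residual and 11.0 prior degrees of freedom. Standard errors were obtained from the fold change and the F statistic (the size of the log2 value over the root of F). Intervals of ratios of counts are exact at 95 % and cover counting error only. The procedure was tested on simulated data, with changes planted only in genes above a set mean level. Genes of lower level were left unchanged there, so the recovery of changes in them was not tested. Python 3.11.15 was used for tables and figures.

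The genes named were the 12 DE genes per direction with the largest gap between regimes (log2 CPM, prior count 2) among those with at least 50 counts in each library of the higher regime, up to 4 called and 2 not called members of each list, the 2 genes per direction with the most counts and 0 in the other regime (found only among the higher genes), and FBS1, HSP60-2 and HSP21, whose splicing the study examined. Others are marked as named after their values were seen. The members and lists were chosen with earlier results of these data known, so they are no independent support. Positions are from the TAIR10.1 annotation of RefSeq, in which all 32548 nuclear identifiers were found, and protein sequences were not used here. Promoters are the 250 bases before a gene's start.

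The alternatives were DESeq2 1.42.0, RLE and upper quartile scaling, other filters, all 6 *A. thaliana* libraries, organelle genes in the fit, glmTreat against a 2-fold change, a robust fit, thinned counts, each library left out, and, added after the data were seen, a fit without rows beside ribosomal DNA. A left-out library leaves 1 library in its regime, which is then assumed to vary like the other regime. Calls over all genes change strongly in such fits, so the calls of a list there are no result about that list.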

Additional observations from a re-analysis of the deposited data

How the results depend on the processing

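No paired analysis was run because the labels give the libraries no replicate number that the regimes share. The count of 232 DE genes (182 higher, 50 lower) became 67 (40 and 27) with DESeq2, 48 (28 and 20) over genes with at least 10 counts in every library, 43 (22 and 21) with glmTreat and 2226 (1004 and 1222) without the fold threshold. Lower genes numbered 74 with no filter on low counts. Leaving out 1 library gave 2 to 467 DE genes, 1 to 368 higher and 1 to 104 lower. Of the 182 higher genes 91 stayed DE without W6 and 1 without W3. Of 157 named genes called by edgeR, 2 stayed called without W3, 56 of 156 without W4, 142 without W5, 135 of 156 without W6, 101 of 124 with DESeq2, 35 with glmTreat, 146 with upper quartile scaling, 143 with the robust fit and at least 151 in the other fits that used all of them. In the fit over genes with at least 10 counts, 101 of 105 stayed called. Among named genes called with all libraries or in the fit that left out 1, signs turned for PYK10 (−0.80 without W6, adjusted P = 0.000911, edgeR, to 0.65 without W5), AT2G01330 (−0.086 without W5 to 7.08 without W6) and AT2G01080 (−0.53 without W5 to 4.39 without W6). A further 15 named genes, called in neither fit, also turned sign, such as LOX2 (0.525 without W3), COR47 (−0.373 without W6), MYB12 (−0.070 without W6) and LBD41 (0.422 without W5). Medians of 10 of 30 lists turned under at least 1 alternative, namely for the DREB2 list (−0.015) and mitosis (−0.003) over genes with at least 10 counts, for ribosomal proteins (−0.002 without W6 to 0.27 without W5), for histones (0.002) under upper quartile scaling, for heat shock factors (−0.115 without W6, −0.105 without W5 and −0.034 without W4), ethylene (−0.18 without W5, −0.053 without W3, −0.092 with no filter and −0.058 with all 6 libraries), arabinogalactan proteins (0.17 without W5 and 0.064 without W3), for autophagy and polyubiquitin, whose median of −0.008 was 0.131 without W5 and positive in 6 alternatives in all, and for the markers of root (up to 1.5 without W5) and leaf epidermis (up to 0.368 without W4). The cause was not tested. Depth limits genes under about 10 counts, where most calls of 4-fold or more lie.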

Other observations

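The share of genes without introns differed between the DE genes of the 2 directions, given here as a description. Of 45 protein-coding DE lower genes 23 (51.1 %) had no intron, against 25.0 % of 168 DE higher genes and 12 % of all 16311 tested protein-coding genes. Among the 3574 tested genes with 9 or more introns, 21 were DE higher and 0 DE lower. At the adjusted P-value alone the share without introns was 13.8 % among the higher and 17 % among the lower genes. The tested genes without introns had a median level of 9.57 CPM, those with 9 or more introns 23.4 CPM, and the part of this difference in level was not tested.

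The 50 DE lower genes were counted in windows of 0.5 Mb. Of these, 37 windows held 1 of them, 3 windows held 2, and 1 window of chromosome 1 held 7 (between 23136366 and 23415155), which were the 4 PPR genes, *FMO GS-OX3*, AT1G62510 and AT1G62760. The window was picked after the values were seen.

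Other genes that short RNAs of the TAS1 precursors are known to target, annotated as targets of trans-acting siR480/255, gave mixed values. AT4G29770 had 2.59 and 5.31 CPM after A/HS and 6.91 and 4.78 CPM after B/HS (adjusted P = 0.426, edgeR), AT5G18040 had 34.5 and 28.4 CPM after A/HS and 37.8 and 37.0 CPM after B/HS (adjusted P = 0.433, edgeR), and AT5G18065 had 26.7 and 33.1 CPM after A/HS against 48.6 and 57.8 CPM after B/HS (log2 fold change −0.84 ± 0.20, adjusted P = 0.0207, edgeR). They were looked up after the values of the precursors were seen, and they have close copies of each other.

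*SQD2*, which makes sulfolipid in plastids, had 350 and 417 CPM after A/HS against 116 and 92.9 CPM after B/HS (1.87 ± 0.21, adjusted P = 0.000809, edgeR). *LPP2*, a lipid phosphate phosphatase, had 21.1 and 8.16 CPM after A/HS against 0.741 and 1.66 CPM after B/HS (3.55 ± 0.56, adjusted P = 0.00282, edgeR). *CIL*, a CCT domain protein whose gene overlaps AT4G25980, had 1.67 and 1.43 CPM after A/HS against 12.3 and 8.94 CPM after B/HS (−2.75 ± 0.42, adjusted P = 0.00272, edgeR). All of these were named after their values were seen.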
